A study of Homo sapiens with 4 samples.

Results

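RBBP4 (also called RBAP48) and RBBP7 (RBAP46) are 2 of the 19775 genes that had a probe set of their own on the arrays. They were measured by 7 of the 54613 non-control probe sets, namely all those that the platform annotation assigns to either symbol. RBBP4 had 6 probe sets and its paralog RBBP7 had 1, and none of the 7 was annotated to a further gene. The cells were HCCLM3, a human hepatocellular carcinoma line, sorted magnetically for the adhesion molecule EpCAM, which marks tumour-initiating cells of the liver. EpCAM-positive cells received antagomir-429, a cholesterol-conjugated antisense RNA that blocks miR-429, at 40 µM, or a negative-control (NC) antagomir at the same dose. EpCAM-negative cells were transfected with a miR-429 mimic, a duplex RNA made to act as the microRNA, at 100 nM, or with an NC mimic at the same dose. Treatment lasted 4 days, and each of the 4 groups had 1 array. The title of the series names a search for miR-429 targets as its purpose, and the mRNA of a target degraded through miR-429 would be scarcer after the mimic and more abundant after the antagomir.

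RBBP4 and RBBP7 are closely related WD40-repeat proteins that bind histones H3 and H4. They are shared subunits of several chromatin machines: the SIN3 and NuRD deacetylase complexes, the H3 lysine 27 methyltransferase PRC2, and the remodeller NURF. RBBP4 is also part of the histone chaperone CAF-1 and of the MuvB core of the DREAM cell-cycle repressor, and RBBP7 is the partner of the acetyltransferase HAT1. Both were first isolated as proteins that bind the retinoblastoma protein RB1. RBBP4 has been reported as a target of miR-429 in liver cancer.

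miR-429 recognises its targets chiefly through its seed, bases 2 to 8 from the 5′ end. The mature sequence is shown with the rest of the miR-200 family, from RefSeq on GRCh38.p14, because the seed decides which target letters are sought, and the seed is in capitals.
hsa-miR-429: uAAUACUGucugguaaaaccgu
hsa-miR-200b-3p: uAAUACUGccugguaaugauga
hsa-miR-200c-3p: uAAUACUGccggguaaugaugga
hsa-miR-200a-3p: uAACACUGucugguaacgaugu
hsa-miR-141-3p: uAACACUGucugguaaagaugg
miR-429 lies at chr1:1169055-1169076 on the plus strand and shares its seed with miR-200b-3p and miR-200c-3p. miR-200a-3p and miR-141-3p carry the substitution U4C relative to miR-429, counted from 1 at the 5′ end. The DNA letters complementary to the miR-429 seed are CAGTATT. The untranslated regions of RBBP4 and RBBP7 were not used here, so no site was searched.

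Values are MAS5 signals, on a linear scale that the authors had set to a trimmed mean of 500.1 on every array. A probe set counted as past the floor when its mean log2 signal over the 4 arrays was at or above the median of all non-control probe sets, a signal of 52.9. RBBP7 passed, and so did 5 of the 6 RBBP4 probe sets. Differences between 2 arrays are log2 ratios of the signals. With 1 array a group there is no replicate spread and no test, so the precision is limited by how few arrays there are. Each ratio is therefore set beside the robust SD (from the median absolute deviation) of the same ratio over all probe sets of like signal, those in the same of 4 equal brightness classes of the 27307 past the floor. EPCAM mRNA differed little between the sorted controls: its signal was 1235 in EpCAM-positive NC antagomir cells and 1106 in EpCAM-negative NC mimic cells, and it was 3838 with the miR-429 mimic and 913 with antagomir-429. The hepatic keratins KRT8 and KRT18 were bright on every array, AFP had signals between 91 and 119, and KRT19 and ALB stayed under the floor on all 4. In such bulk RNA, fewer cells that express a gene and less RNA of it per cell cannot be told apart.

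RBBP4 was not lower in cells given the miR-429 mimic by its bright probe sets, and it was close to its control with antagomir-429. The brightest, 210371_s_at, had a signal of 7029 with antagomir-429, 6599 with the NC antagomir, 6884 in miR-429 mimic cells and 4845 in NC mimic cells. The NC mimic array was thus the low one, while the other 3 lay close together. The second, 217301_x_at, had signals of 4138, 3927, 4505 and 3205 on those arrays in the same order. It too was lowest with the NC mimic. Both probe sets lay in the brightest class. Their suffixes mark probe sets that match several transcripts or may cross-hybridise. RefSeq names 7 pseudogenes of RBBP4 and none of RBBP7 under these symbols, and whether the probes match them was not tested.

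**Figure D1:**
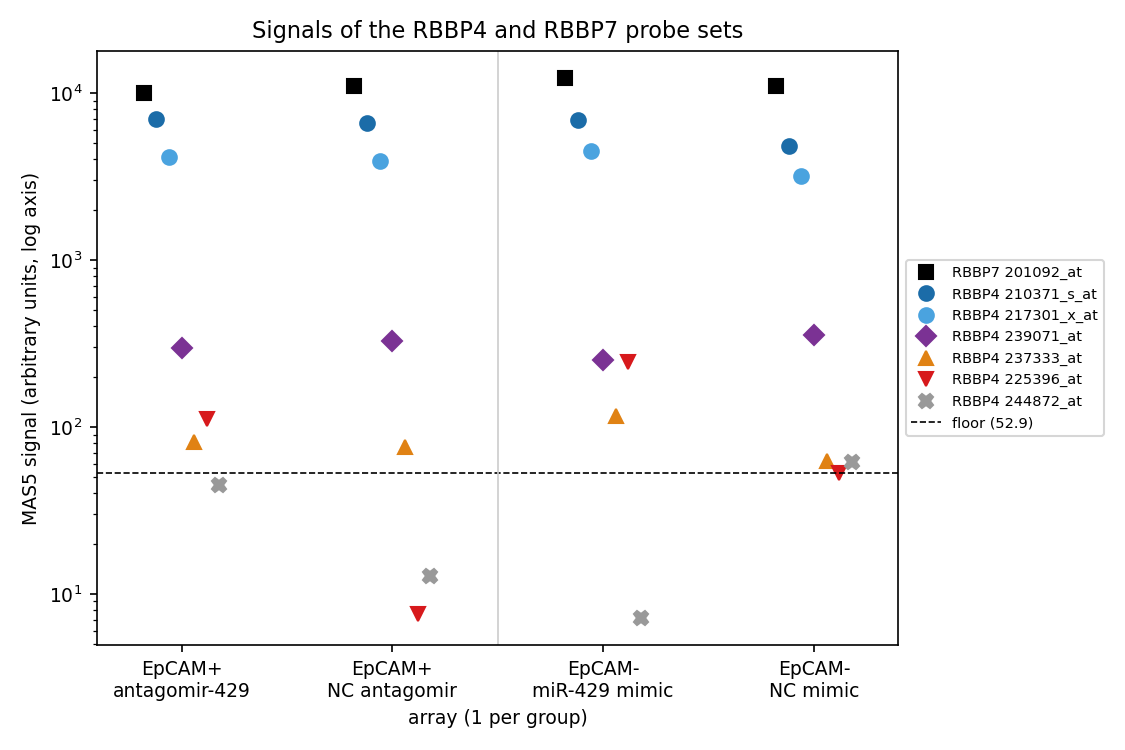
Signal (log axis, arbitrary MAS5 units) of each RBBP4 and RBBP7 probe set on the 4 arrays, with the floor of 52.9 as a dashed line; each point is 1 array, and points are spread sideways only to be seen. The RBBP7 probe set and the 2 bright RBBP4 probe sets stay in narrow bands, with RBBP4 lowest on the NC mimic array, while 225396_at spans signals between 7.5 and 246.

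With the miR-429 mimic the log2 ratio over the NC mimic was 0.51 for 210371_s_at and 0.49 for 217301_x_at, or 1.42-fold and 1.41-fold. The robust SD of probe sets of like signal was 0.39, so both lay beyond 1 robust SD and short of 2-fold. Centring each array on its median moved all probe sets by -0.11 in this comparison and left 0.40 and 0.38. The median ratio of all probe sets past the floor went from 0.03 to -0.08 with it. In the same comparison genes of longer genomic span had higher ratios. With genes of a mean signal at or above 265.6 in 5 equal bins by span, the bin that holds RBBP4 (span 35 kb) had a median log2 ratio of 0.11, and the bin that holds RBBP7 (26 kb) had -0.03. Between the controls these bins had 0.04 and -0.01. The bin medians rose with span there too, and less steeply with the antagomir. The actin 3′ to 5′ signal ratio, a measure of RNA integrity and labelling, was 2.63 on the miR-429 mimic array and 3.41 on the NC mimic array. The same ratio for GAPDH was 0.92 on both arrays. The part of span and of the actin ratio in the RBBP4 values was not tested. Set against the EpCAM-positive NC antagomir array instead, the miR-429 mimic gave 0.061 for 210371_s_at and 0.20 for 217301_x_at, both within the robust SD of 0.29 for that pair of arrays.

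With antagomir-429 the same probe sets hardly differed from the NC antagomir. The log2 ratio was 0.091 for 210371_s_at and 0.075 for 217301_x_at, both within the robust SD of 0.17. Between the controls, the ratio of EpCAM-positive NC antagomir cells to EpCAM-negative NC mimic cells was 0.45 and 0.29 for these probe sets, against a robust SD of 0.26. The controls differ in EpCAM sort, type of reagent and dose at once, so these cannot be told apart. Each of the other comparisons shares an array with this one. In the order of levels for 210371_s_at, antagomir-429, the miR-429 mimic and the NC antagomir did not differ from their neighbours beyond the robust SD. The step to the NC mimic, 0.45, did. For 217301_x_at the order was the miR-429 mimic, antagomir-429 and the NC antagomir, again with no step beyond the robust SD, and the step of 0.29 to the NC mimic exceeded it.

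The third RBBP4 probe set, 239071_at, lay on the other side of 0. Its signals were 297 with antagomir-429, 327 with the NC antagomir, 252 in miR-429 mimic cells and 353 in NC mimic cells. It was therefore highest on the array where the bright probe sets were lowest, and lowest with the miR-429 mimic. The log2 ratio was -0.49 for the mimic over its control, with a robust SD of 0.47 at this signal, -0.14 for the antagomir over its control, with a robust SD of 0.31, and -0.11 between the controls, with one of 0.39. No step between neighbours in its order exceeded the robust SD. This was the only RBBP4 probe set past the floor with a lower signal with the miR-429 mimic than with the NC mimic.

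The dim RBBP4 probe sets varied more. For 237333_at the signals were 81 with antagomir-429, 76 with the NC antagomir, 116 in miR-429 mimic cells and 62 in NC mimic cells. The log2 ratio of 0.90 with the mimic compares with a robust SD of 0.87 among probe sets this dim. It was 0.09 with the antagomir. For 225396_at the signals were 112 and 7.5 with antagomir-429 and its NC antagomir, and 246 and 53 with the miR-429 mimic and its NC mimic. Both treated arrays were above both controls, and the cause was not tested. The log2 ratio was 2.21 with the mimic (4.63-fold). With the antagomir it was 3.89 as measured. There the control lay under the floor, so that only a bound of at least 2.1-fold holds. Between the controls the EpCAM-positive array was lower, and the bound was 1.01-fold.

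225396_at passed the floor by its mean signal of 57.7, only 9.01% above it, and did so through the miR-429 mimic array: the mean over the other 3 arrays was 35.5. By ratios as measured it was the only RBBP4 probe set past 2-fold among the 5 past the floor. It made 1 of 5 higher with the mimic, 1 of 5 higher with the antagomir and 1 of 5 lower between the controls. Taken against the floor, the last of these has only the bound of 1.01-fold, short of 2-fold. Over all 27307 probe sets past the floor, 6.83% were past 2-fold upward with the mimic, 4.68% upward with the antagomir and 5.69% downward in the EpCAM-positive control. In the dimmest class, which holds 225396_at, these shares were 15.6%, 13.4% and 15%. The remaining probe set, 244872_at, did not pass, with a mean signal of 22.4. Its signals were 45 with antagomir-429, 13 with the NC antagomir, 7.1 in miR-429 mimic cells and 62 in NC mimic cells, so only the NC mimic array lay above the floor. Against the miR-429 mimic array that allows a bound of at least 1.2-fold lower with the mimic.

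**Figure D2:**
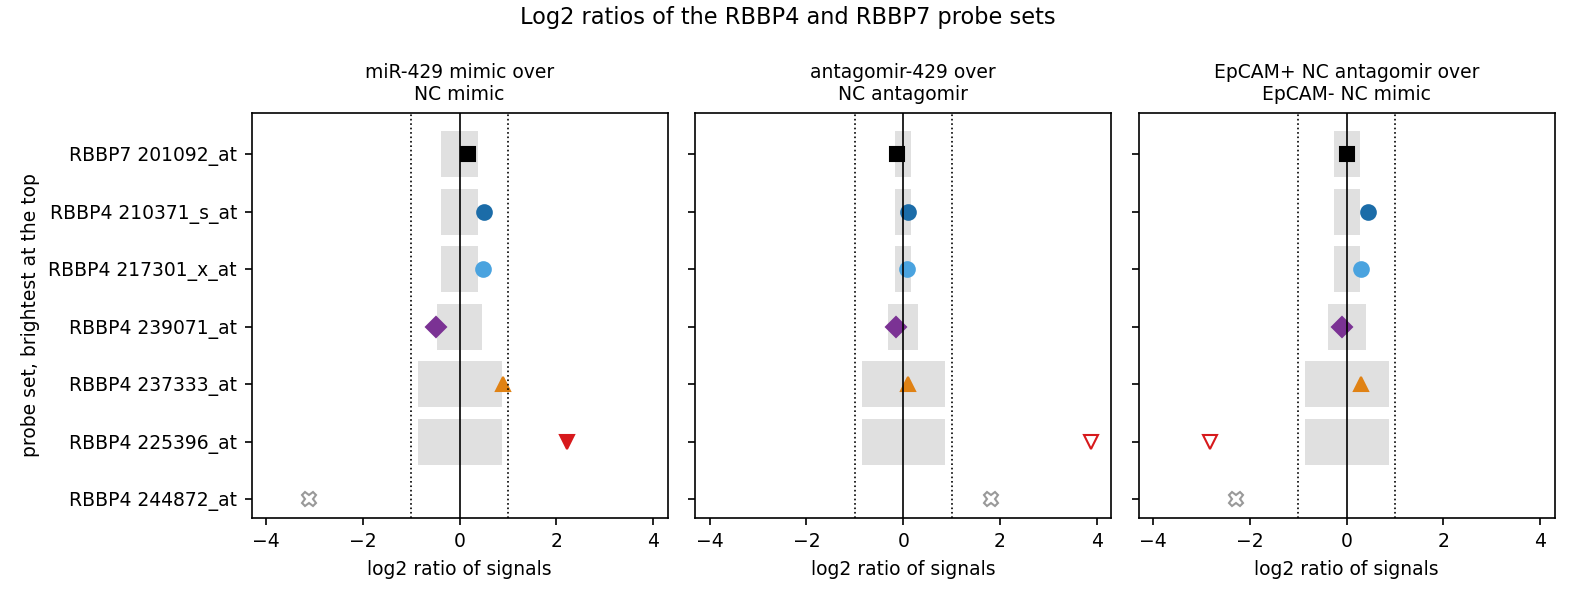
Log2 ratio of each probe set in the 3 comparisons; grey bars span 1 robust SD to each side of 0 for probe sets of like signal (none for 244872_at, which is under the floor), dotted lines mark 2-fold, and open symbols have at least 1 array under the floor. With the miR-429 mimic the bright RBBP4 probe sets lie right of 0 (0.51 and 0.49) and 239071_at lies left of it (-0.49); with antagomir-429 the 4 brightest probe sets lie between -0.14 and 0.09.

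The RBBP4 probe sets therefore disagreed within each comparison. Among the 5 past the floor, 4 were above 0 and 1 below with the mimic, and 4 and 1 with the antagomir. Between the controls 3 were above 0 and 2 below. Their log2 ratios spanned 2.70 with the mimic, 4.03 with the antagomir and 3.26 between the controls. Disagreement in sign was common on these arrays. Of the 206 genes with 5 probe sets past the floor, 74.8% had ratios on both sides of 0 with the mimic, 89.8% with the antagomir and 84.5% between the controls. The median range was 1.08, 1.0 and 1.17 in the 3 comparisons, narrower than that of RBBP4 in each. RBBP4 was chosen with the disagreement of its probe sets known, so its place among these genes is a description only.

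The width rested on 225396_at. Without it the range of RBBP4 was 1.39 with the mimic, 0.23 with the antagomir and 0.55 between the controls. With signals under the floor raised to the floor, an alternative chosen after the data were seen, the range stayed at 2.70 with the mimic but was 1.22 with the antagomir and 0.55 between the controls.

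**Figure D3:**
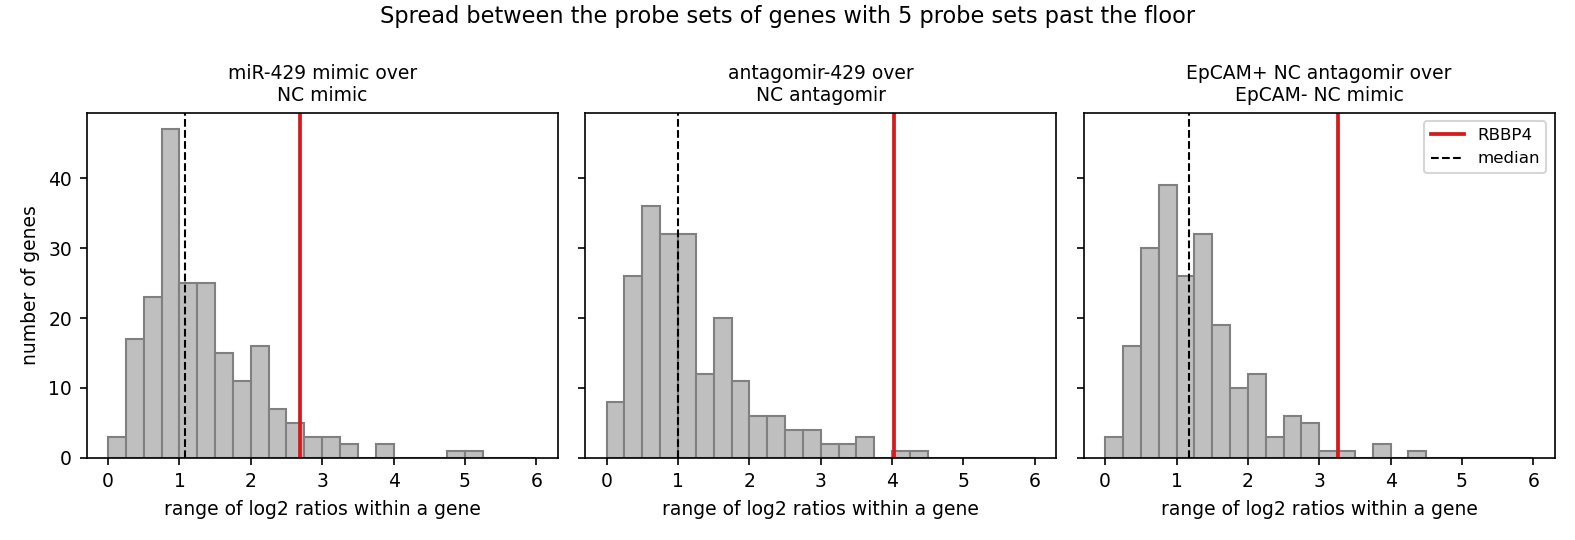
Number of genes by the range of log2 ratios over their probe sets, for the 206 genes with 5 probe sets past the floor, as deposited; the red line is RBBP4 and the dashed line the median of these genes. RBBP4 lies at 2.70, 4.03 and 3.26, to the right of the medians of 1.08, 1.0 and 1.17.

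RBBP7 differed little over the 4 arrays. Its single probe set, 201092_at, had signals of 10074 with antagomir-429, 11051 with the NC antagomir, 12347 in miR-429 mimic cells and 11029 in NC mimic cells. The controls were nearly equal, the mimic array was the highest and the antagomir array the lowest. The log2 ratio was 0.16 with the mimic (robust SD 0.39), -0.13 with the antagomir (0.17) and 0.00 between the controls (0.26). The highest signal was 1.23 times the lowest, and no step between neighbours in the order exceeded the robust SD. Both treatment ratios lay within the robust SD.

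The profiles of the paralogs over the arrays were compared, although that of RBBP7 held no step beyond the robust SD. Whether the profiles differ was not tested. After each was centred on its own mean, the Euclidean distance between the brightest RBBP4 probe set and RBBP7 was 0.48 on the log2 scale over the 4 arrays. Among the 11495 other genes at or above the floor on all arrays, RBBP7 ranked 3742nd in closeness to RBBP4. The 5 genes closest to RBBP4 were WDR43, LARP4B, RBM12, TOP1 and CCT4, at distances between 0.02 and 0.05. All 5 had their lowest signal with the NC mimic, which follows from picking them by closeness to RBBP4 over these arrays. WDR43, for example, had 223 in cells given antagomir-429, 205 with the NC antagomir, 215 in miR-429 mimic cells and 152 in NC mimic cells. The 5 closest to RBBP7 were HNRNPM, ISCU, MAP1S, C16orf74 and SEPTIN7-DT, at distances between 0.02 and 0.03. With so many genes and 4 arrays such close profiles are a description only.

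The genes that encode partners of RBBP4 and RBBP7 were mostly near their controls. Of 70 partner genes in 8 lists, 66 had a probe set of their own and 61 passed the floor by their brightest one. With the mimic 32 of the 61 were above 0 and 29 below, with a median log2 ratio of 0.03, and 0 were at least 2-fold higher and 1 lower. Over all 13180 genes past the floor, the median was 0.00, and 5.25% were at least 2-fold higher and 3.76% lower. With the antagomir 36 were above 0 and 25 below, with a median of 0.03, and 2 were at least 2-fold higher and 0 lower, beside a median of 0.01 and shares of 3.72% and 3.53% over all genes. Between the controls the median was 0.04, beside -0.02 over all genes, with 0 of 61 at least 2-fold higher and 1 lower, beside 3.62% and 4.7%.

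In the SIN3 list all 13 measured members were past the floor and none was past 2-fold in any comparison. HDAC1, the deacetylase that RBBP4 joins in both SIN3 and NuRD, had a signal of 15881 with antagomir-429, 15152 with the NC antagomir, 14464 in miR-429 mimic cells and 12607 in NC mimic cells. Like RBBP4 by its bright probe sets, it was lowest on the NC mimic array, with log2 ratios of 0.20 with the mimic, 0.07 with the antagomir and 0.27 between the controls. Its paralog HDAC2 had -0.20, -0.11 and -0.12 in these comparisons by its brighter probe set. The median over its 2 probe sets was -0.21, -0.51 and 0.17, so they disagreed in sign between the controls. The scaffold SIN3A had 0.68 with the mimic and 0.32 with the antagomir by its brightest probe set. The median over its probe sets past the floor was 0.73 and 0.09. The largest ratio in the list with the mimic was that of the subunit SAP130, at 1524 in cells given the miR-429 mimic and 849 in NC mimic cells (0.84). SAP130 also had 0.86 between the controls, again with the NC mimic array as the low one. In NuRD 11 of 12 members passed and none was past 2-fold. The remodelling ATPase CHD4 had 0.30 with the mimic and 0.01 with the antagomir. MTA2, a scaffold that binds RBBP4 directly, had 153 in miR-429 mimic cells and 295 in NC mimic cells (-0.95), and -0.06 with the antagomir.

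In PRC2, with 9 of 10 members past the floor, the core subunits were short of 2-fold with either treatment. The methyltransferase EZH2 had log2 ratios of 0.40 with the mimic and 0.30 with the antagomir, EED had 0.20 and -0.08, and SUZ12 had -0.01 and 0.06. The accessory subunit MTF2 was past 2-fold in all 3 comparisons. Its brightest probe set had signals of 229 with antagomir-429, 102 with the NC antagomir, 187 in miR-429 mimic cells and 418 in NC mimic cells. The ratio was -1.16 with the mimic, 1.16 with the antagomir and -2.03 between the controls. The first and last of these share the NC mimic array, the highest, and the miR-429 mimic array lay above the NC antagomir array. The median over its probe sets past the floor was -0.38, -0.20 and -0.85, so its other probe sets did not follow with the antagomir.

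Of the chaperone list all 10 members passed and none was past 2-fold. The CAF-1 subunits, which deposit H3 and H4 behind the replication fork, had -0.14 with the mimic and 0.12 with the antagomir for CHAF1A, and 0.34 and 0.03 for CHAF1B. HAT1, the acetyltransferase that RBBP7 activates, had 1440 with antagomir-429, 1704 with the NC antagomir, 1447 in miR-429 mimic cells and 2720 in NC mimic cells. Its NC mimic array stood above the other 3, and the ratio was -0.91 with the mimic, -0.24 with the antagomir and -0.67 between the controls. The NURF and CENP-A loading lists, with 2 and 4 members past the floor, held none past 2-fold. Their ratios with the mimic lay between 0.04 and 0.71, the largest of each list being those of HMGXB4 (0.71) and MIS18A (0.61), and median centring moves each by -0.11.

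In the DREAM and MuvB list 10 of 12 members passed. LIN9 and LIN54, the MuvB subunits fixed for naming, did not. LIN9 had signals of 76 with antagomir-429, 65 with the NC antagomir, 9 in miR-429 mimic cells and 124 in NC mimic cells, which gives a bound of at least 2.3-fold lower with the mimic. LIN54 had 63, 22, 14 and 65, with a bound of at least 1.2-fold lower with the mimic and 1.2-fold higher with the antagomir. E2F4, the E2F of DREAM, was past 2-fold with the antagomir, at 864 and 419 (1.05), and had 0.04 with the mimic. These ratios came from its brighter probe set. Over its 2 probe sets the median log2 ratio was 0.62 for antagomir-429, 0.55 for the mimic and 0.64 between the controls. The other probe set was therefore short of 2-fold with the antagomir and lay above the brighter one with the mimic. Between the controls the brighter probe set had -0.32, so the 2 probe sets disagreed in sign there. RB1 itself, which gave RBBP4 and RBBP7 their names, had 0.35 with the mimic and 0.17 with the antagomir. E2F1, the activator that RB1 holds in check, had -0.31 and 0.15 by its brighter probe set, while the median over its 2 probe sets was -0.19 and -0.68, so they disagreed in sign with the antagomir. POU5F1 had no probe set of its own. Of the other RB binding proteins, which are not members of the same family, RBBP5, RBBP6 and RBBP9 passed the floor and none was past 2-fold.

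**Figure D4:**
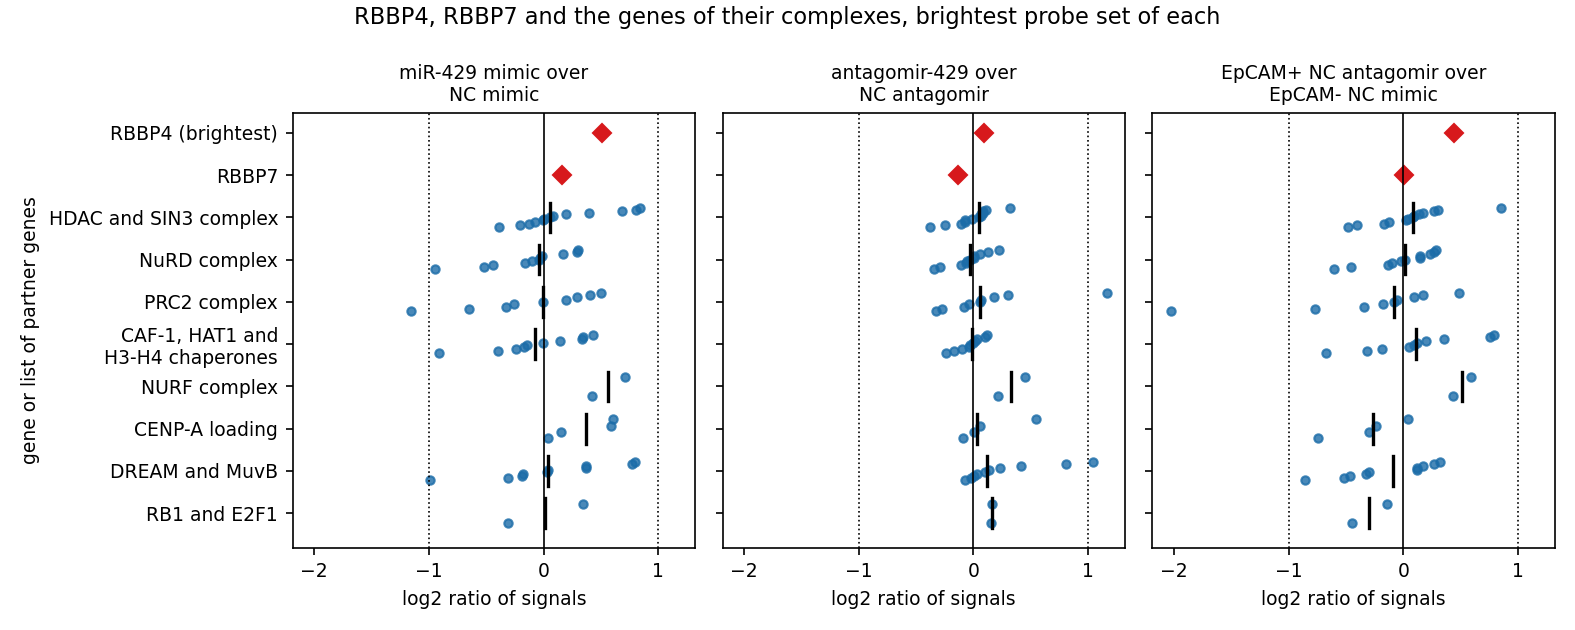
Log2 ratio of RBBP4 (210371_s_at) and RBBP7 as red diamonds, and of the partner genes past the floor as blue points by list, with a black bar at each list's median and dotted lines at 2-fold. Most points lie between the dotted lines. By its brightest probe set MTF2 of the PRC2 list is past 2-fold at -1.16, 1.16 and -2.03. E2F4 is past it at 1.05 with the antagomir, by its brighter probe set only.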

How the data were processed

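The deposited values are log2 MAS5 signals from Affymetrix Human U133 Plus 2.0 arrays; MAS5 is named in the submitters' processing notes, with no version, and no detection calls were used. On the linear scale the 2% trimmed mean was 500.1 on all 4 arrays, which the authors had therefore scaled alike. No further scaling was applied. The 62 control probe sets were left out, and 1 gene symbol was available for 41091 probe sets (old annotation, updated through RefSeq identifiers). A gene was represented by its brightest probe set. Python 3.11.15, numpy 2.4.6 and pandas 2.3.3 were used, and the calculation of ratios and robust SDs was tested on simulated data. With 1 array per group no p-value was computed. A fold against a signal under the floor of 52.9 is taken against the floor and given as "at least". Counts and shares past 2-fold use the ratios as measured. Alternatives were quantile normalization, median centring, 16 signal units added before log2, other floors, other summaries of the probe sets and the other control array. A fixed rule gave the genes that could be named: every RBBP4 and RBBP7 probe set, EPCAM, 16 partner genes and the 5 closest profiles. In each list and comparison it also gave members past 2-fold, or else up to 2 with the largest ratios. Not all of these are named above. Left out, for example, were RBL1 (log2 ratio -0.99) and RBL2 (0.80) with the mimic and HJURP (-0.74) between the controls. EPCAM, KRT8, KRT18, KRT19, AFP and ALB were the markers of the line. Markers of leukocytes had summed signals between 431 and 618, with PTPRC, CD14 and LYZ under the floor on all arrays but HBB (282 to 417, most of the sum) and CD3E (55 to 136, log2 ratio 1.32 with the mimic) above it, and those of stroma between 7967 and 11166, mostly COL1A1. Members and lists were chosen with earlier results of these data known.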

Additional observations from a re-analysis of the deposited data

How the results depend on the processing

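Of 70 recomputed values 57 moved by less than the robust SD of like values and 13 moved further. Some of the 57 could not move: RBBP7 has 1 probe set, so summaries over its probe sets repeat its value. Centring an array cannot change a range within a gene either. Medians of the partner genes were set beside the robust SD of single genes, a wide measure for a median. The count of 57 is therefore no measure of robustness. With the other control array the brightest RBBP4 probe set had 0.061 in place of 0.51 for the mimic and 0.54 in place of 0.091 for the antagomir. The other control is not matched: it differs in EpCAM sort, type of reagent and dose. The range over the RBBP4 probe sets depended on the filter: with the floor at the 75th percentile, which leaves 3 probe sets, it was 0.99 with the mimic, 0.23 with the antagomir and 0.55 between the controls, and without a floor it was 5.33 with the mimic. With the offset it was 2.57 with the antagomir and 2.0 between the controls. Without 225396_at it was 1.39, 0.23 and 0.55, and with signals raised to the floor it was 1.22 with the antagomir and 0.55 between the controls; both of these alternatives were chosen after the data were seen. Median centring moved every log2 ratio with the mimic by -0.11. The median ratio of all probe sets past the floor thereby went from 0.03 to -0.08. The same centring left 0.40 for 210371_s_at, 0.05 for RBBP7 and -0.08 for the partner genes. RBBP7 had -0.00 between the controls with that centring. The sign of every RBBP4 probe set was the same under each scaling. No paired analysis was possible because each group had 1 array. Signals near the floor limit 225396_at, 237333_at and 244872_at.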
